A study of Saccharomyces cerevisiae with 2 samples.

Results

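The 10 genes described here act in yeast mating, between the arrest of the cell cycle and the fusion of the nuclei. They are FUS1, FUS2, FIG1, FIG2, PRM1, PRM6, AGA1, KAR4, KAR5 and FAR1, chosen by name from 6448 open reading frames. They were picked with the ratios between the strains in view, so those ratios are a description and no test of the strains was made on them. Engaged RNA polymerase was measured by a run-on assay called BioGRO-seq, in which permeabilised cells extend their nascent transcripts with biotin-labelled UTP. There was 1 library from the wild-type strain BY4741, a haploid of mating type a, and 1 from a strain of the Euroscarf collection that lacks XRN1. Both cultures were harvested at an OD600 of 0.55, and the labels name no pheromone treatment. Xrn1 is the cytoplasmic exonuclease that degrades decapped mRNA from the 5′ end. The gene is also known as KEM1, from a screen for mutations that worsen the nuclear fusion defect of a kar1 mutant.

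A haploid a cell senses the alpha-factor of a mating partner through the receptor Ste2. A G protein and a MAP kinase cascade then release the transcription factor Ste12, which binds pheromone response elements with the sequence TGAAACA upstream of its target genes. Far1 holds the cell in G1 and directs growth toward the partner. Agglutinins join the cells, Fus1, Fus2 and Prm1 act when the walls and membranes fuse, and Kar4 and Kar5 serve the fusion of the nuclei. Without pheromone these genes keep a basal transcription that depends on the same pathway to different extents.

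The upstream sequences show how differently these genes carry the element. The 220 bases that begin 320 bases before the start codon and stop 100 bases short of it are printed for 7 of the genes, on the strand of the gene and from the RefSeq R64 assembly. Capitals mark each exact TGAAACA, read on either strand, so that an element on the opposite strand appears as TGTTTCA. The first 4 genes carry the element in this window and had large falls in the deletion strain. FUS2 carries it with a smaller difference, at a log2 ratio of −0.80 (ratios are explained below). FIG1 fell without it, and FAR1, which has none, was at −0.995. Of the genes not printed, KAR4 carries it in this window and was at −0.61. KAR5 and FIG2 do not, and were at −0.34 and 0.01.
FUS1: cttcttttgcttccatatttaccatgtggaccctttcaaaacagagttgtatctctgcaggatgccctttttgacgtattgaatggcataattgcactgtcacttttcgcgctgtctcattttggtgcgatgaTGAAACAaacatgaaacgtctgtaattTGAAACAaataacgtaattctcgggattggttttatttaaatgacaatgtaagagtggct
PRM1: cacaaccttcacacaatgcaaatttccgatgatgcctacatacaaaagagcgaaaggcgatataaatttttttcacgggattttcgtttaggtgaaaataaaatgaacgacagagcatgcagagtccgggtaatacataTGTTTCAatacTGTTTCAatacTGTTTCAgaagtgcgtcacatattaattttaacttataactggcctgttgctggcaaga
PRM6: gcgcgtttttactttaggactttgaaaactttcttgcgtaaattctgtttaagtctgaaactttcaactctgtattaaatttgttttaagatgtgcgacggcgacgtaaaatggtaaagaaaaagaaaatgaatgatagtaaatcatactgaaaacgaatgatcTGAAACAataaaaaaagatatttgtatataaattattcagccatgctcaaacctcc
AGA1: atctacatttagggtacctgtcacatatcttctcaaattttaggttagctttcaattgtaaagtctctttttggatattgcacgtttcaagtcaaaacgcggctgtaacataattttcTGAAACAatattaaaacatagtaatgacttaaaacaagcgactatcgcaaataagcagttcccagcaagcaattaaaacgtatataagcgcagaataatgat
FUS2: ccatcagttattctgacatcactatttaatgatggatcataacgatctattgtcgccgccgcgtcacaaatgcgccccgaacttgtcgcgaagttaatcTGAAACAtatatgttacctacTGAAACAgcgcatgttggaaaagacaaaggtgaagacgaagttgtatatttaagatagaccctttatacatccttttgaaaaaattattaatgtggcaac
FIG1: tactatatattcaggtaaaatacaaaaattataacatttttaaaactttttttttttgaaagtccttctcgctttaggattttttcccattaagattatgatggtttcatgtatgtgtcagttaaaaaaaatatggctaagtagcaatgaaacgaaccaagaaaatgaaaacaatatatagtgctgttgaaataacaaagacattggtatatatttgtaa
FAR1: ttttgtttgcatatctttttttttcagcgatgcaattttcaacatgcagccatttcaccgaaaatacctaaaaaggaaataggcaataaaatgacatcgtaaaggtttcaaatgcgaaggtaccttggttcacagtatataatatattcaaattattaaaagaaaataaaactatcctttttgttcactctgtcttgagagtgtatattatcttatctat
These windows lie at chrIII:71483-71702 for FUS1, chrXIV:110597-110816 for PRM1, chrXIII:181176-181395 on the minus strand for PRM6 and chrXIV:703379-703598 for AGA1. Those of FUS2, FIG1 and FAR1 lie at chrXIII:736606-736825, chrII:316648-316867 and, on the minus strand, chrX:126429-126648.

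The wild-type library held 64934493 counts and the library of the deletion strain 46396400. XRN1 itself had 41954 and 53 of these counts, 555-fold lower in the deletion strain (424 to 741), so the labels matched the libraries. Each ratio below is the count in the deletion strain over the wild-type count. It was scaled so that the median protein-coding gene, with a raw ratio of 0.701, is at 0 on the log2 scale. A change shared by most genes would therefore not show, and every fall or rise below is relative to the other genes. Intervals are 95% exact intervals for 2 counts and cover counting error only. The spread between cultures was not measured, so no p-value was computed. A gene is called lower at a ratio of at most 0.5, or higher at a ratio of at least 2, with an interval that excludes 1 and at least 100 counts over both libraries. In bulk cultures, fewer cells transcribing a gene and less transcription per cell cannot be told apart.

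All of the genes except FIG2 lay below the median gene in the deletion strain, and 5 were called lower, namely FUS1, FIG1, PRM1, PRM6 and AGA1. Over all 5198 protein-coding genes with enough counts, 1.52% were called lower. None of the 10 was called higher, against 4.06% of all genes. The median log2 ratio was −1.22 over the 10 genes and 0.00 over all protein-coding genes. The genes were chosen on this contrast, so nothing is read from these shares. Together the 10 genes made up 0.109% of wild-type counts and 0.0623% of those in the deletion strain, and most of those counts belonged to FAR1 and FIG2. Relative to the median gene, the sum of the 10 was lower by 1.71-fold (1.69 to 1.74, 95% counting interval of the sum). The sum of the 5 not called was lower by 1.42-fold (1.40 to 1.44). The 5 genes called lower took 0.0289% and 0.00709%, a fall that follows from the call itself. AGA1 gave 12677 of their 18735 wild-type counts.

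**Figure D1:**
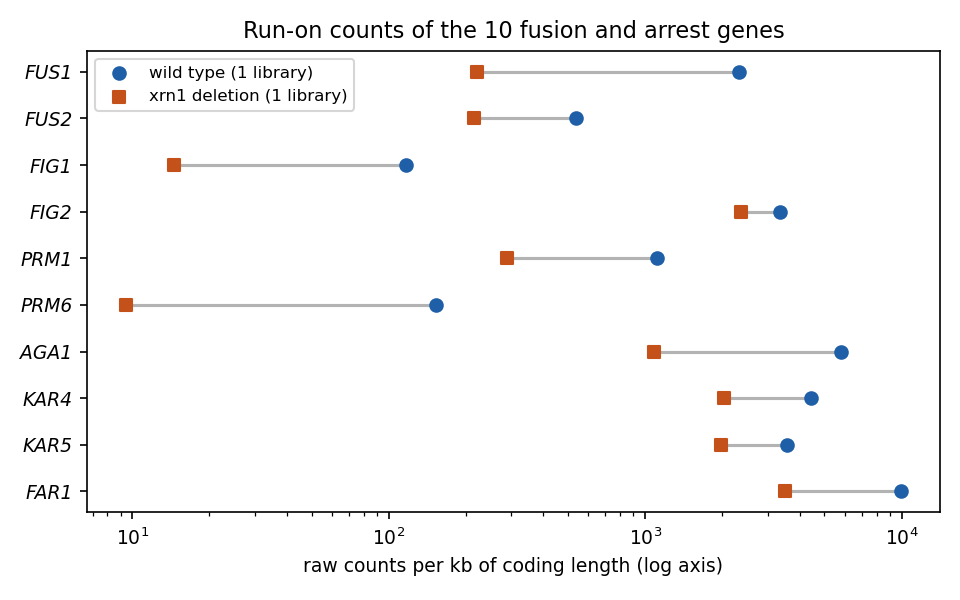
Raw counts per kb of coding length on a log axis for the 10 genes, with 1 point per library (circle for the wild type, square for the deletion strain). Raw counts are shown, so the median gene itself lies 0.701-fold to the left in the deletion strain, and PRM6 and FIG1 sit lowest in both libraries, at 153 and 117 counts per kb in the wild type.

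FAR1 (YJL157C, chrX:123836-126328), the inhibitor of the G1 cyclin kinase and scaffold for polarised growth, was the most transcribed of the 10. It gave 24796 wild-type counts and 8723 in the mutant, or 9946 and 3499 per kb. Its level per kb stood at the 81.9 percentile of protein-coding genes in the wild type and at the 53.7 percentile in the deletion strain. Its ratio of 0.502 (0.489 to 0.514) lay just outside the limit for a call, at a log2 ratio of −0.995. Under each of the 4 other scalings tried it passed that limit, with log2 ratios from −1.02 to −1.01. This makes 6 of the 10 genes called lower there, beside 83 or 84 of the 5198 protein-coding genes.

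The adhesion genes AGA1 and FIG2 stood far apart. AGA1 (YNR044W, chrXIV:703699-705876) encodes the subunit that anchors the a-agglutinin in the cell wall, where its partner Aga2 is attached to it by disulfide bonds. Its counts went from 12677 in the wild type to 2350, and it fell by 1.92 on the log2 scale, 3.78-fold (3.62 to 3.96). Its level per kb moved from the 63.3 percentile of genes to the 9.87 percentile. FIG2 (YCR089W, chrIII:267434-272263), a related cell wall adhesin of mating cells, showed 16208 wild-type counts and 11432 in the deletion strain. Its log2 ratio was 0.01 (−0.03 to 0.04), an interval that includes the median gene, and the sign of this value turned to −0.02 or −0.01 under the 4 other scalings. Its level stood at the 34.5 percentile in the wild type and the 33.9 percentile in the deletion strain.

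FIG1 and PRM6 were the least transcribed and, with FUS1, the furthest below the median gene. Both encode membrane proteins linked to the entry of calcium during mating, Fig1 as a part of the low-affinity uptake system and Prm6 as a potassium channel related to Kch1. PRM6 (YML047C, chrXIII:180017-181075) gave 162 counts against 10, which is 11.4-fold lower, and the interval of 6.02 to 24.1 is wide because of the low counts. FIG1 (YBR040W, chrII:316968-317864) gave 105 counts against 13, which is 5.66-fold lower (3.17 to 11.0). In the wild type they stood at the 1.53 and 1.12 percentile of genes by level per kb, near the bottom of the distribution. The paralog KCH1 was at the level of a typical gene, with 7530 and 3913 counts and a log2 ratio of −0.43 (−0.49 to −0.38), and was not called.

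The cell fusion genes FUS1, FUS2 and PRM1 spanned a wide range. FUS1 (YCL027W, chrIII:71803-73341), whose product gathers at the tip of the mating projection, went from 3577 counts to 341. Per kb this was 2324 wild-type counts and 222 in the deletion strain, a move from the 17.6 to the 2.53 percentile of genes. Its fall of 2.88 on the log2 scale, 7.36-fold (6.58 to 8.25), put it at rank 6 from the lowest of the 5198 genes. PRM1 (YNL279W, chrXIV:110917-112902), a membrane protein that promotes the fusion of plasma membranes, went from 2214 counts to 574 and fell by 1.44, or 2.71-fold (2.47 to 2.97). FUS2 (YMR232W, chrXIII:736926-738959), a cytoplasmic protein that works with the amphiphysin Rvs161, had 1089 and 439 counts. Its log2 ratio of −0.80 (−0.96 to −0.64) was not called. FUS1 and FUS2 thus reached nearly the same level in the deletion strain, 222 and 216 counts per kb, from levels in the wild type of 2324 and 535.

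The genes for nuclear fusion differed least after FIG2. KAR4 (YCL055W, chrIII:27929-28936), the transcription factor that acts with Ste12 on karyogamy genes, had 4473 and 2055 counts. Its log2 ratio was −0.61 (−0.69 to −0.53). KAR5 (YMR065W, chrXIII:399702-401216), a nuclear envelope protein required for the fusion of nuclear envelopes, had 5400 and 2983 counts and a log2 ratio of −0.34 (−0.41 to −0.28). Neither was called.

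In the order of their ratios, the intervals of PRM6 and FUS1, of FUS1 and FIG1 and of FIG1 and AGA1 overlapped. The same held for FAR1 and FUS2 and for FUS2 and KAR4. Overlap alone does not settle whether the order within a pair is resolved, and no interval of the differences was computed. The other neighbours in that order lay apart by more than counting error. The non-member genes with the log2 ratio nearest to that of FUS1 were SNZ3 at −2.63, FRE5 at −3.19 and PAU3 at −2.49. SNZ3 had only 106 and 12 counts and PAU3 96 and 12, against 2479 and 190 for FRE5. This likeness rests on a single ratio between 2 libraries.

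**Figure D2:**
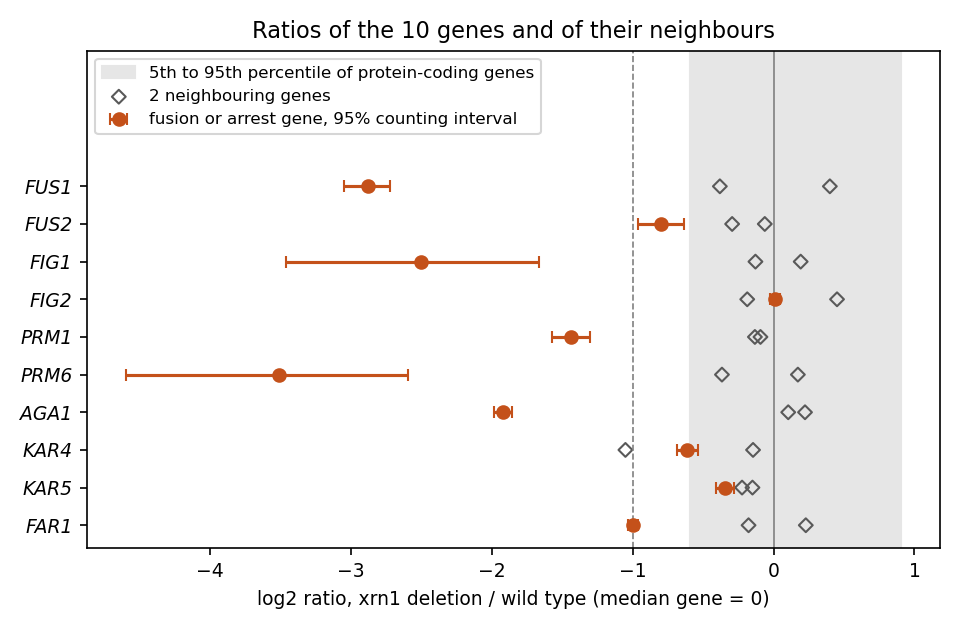
Log2 ratio of the deletion strain over the wild type for the 10 genes (filled circles with 95% counting intervals) and for the 2 genes next to each (open diamonds), with the median gene at 0 and the limit for a lower call dashed. The 5 genes left of the dashed line are FUS1, FIG1, PRM1, PRM6 and AGA1, FAR1 lies on it at −0.995, and RDT1 beside KAR4 is the neighbour past it.

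The genes beside the 10 lay near the median gene, with 1 exception. The 20 neighbouring genes had a median log2 ratio of −0.13 and a range of −1.05 to 0.45, and 1 was called lower. That gene is RDT1, which lies 1973 bases downstream of KAR4 and had 251 and 85 counts. The genes on either side of FUS1 are RNQ1, a prion protein gene, and HBN1. RNQ1 lies 435 bases upstream and was at 0.40, and HBN1 ends 63 bases from the end of FUS1 and was at −0.38. ERG24, for a sterol reductase, is divergent from PRM1 across 505 bases and was at −0.09. PRP39, for a splicing factor, is divergent from PRM6 across 398 bases and was at −0.37. The mevalonate pathway gene MVD1 upstream of AGA1 was at 0.10, and the ATP synthase gene ATP3 upstream of FIG1 at 0.19. None of the 10 genes overlaps another annotated gene, and the nearest chromosome end is 27.9 kb away, beside KAR4.

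The pheromone response element was common upstream of these genes. An exact TGAAACA on either strand lay within the 500 bases before the start codon in 7 of the 10, against 11.8% of the 5177 protein-coding genes with enough counts and an annotated position. At least 2 elements were found in 6 of the 10 and in 0.908% of those genes. Matches inside a neighbouring gene were counted too, and 1 of those of PRM6 lies inside PRP39. The shorter core TGAAAC, which is part of every TGAAACA, was found in 9 of the 10 and in 29.5% of genes. KAR5 was the gene without it. The element was not used to choose the genes, but the genes are known targets of the pheromone pathway.

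The arrangement of the elements differed from gene to gene. PRM1 has 3 elements in a row on the opposite strand, each 11 bases after the last, at 181, 170 and 159 bases before the start codon. FUS1 has 2 on its own strand at 187 and 160 bases, with a TGAAAC core between them that can be read in lower case above. FUS2 has 2 on its own strand at 221 and 200 bases. PRM6 has 1 at 156 bases on its own strand and a distant 1 at 413 bases on the other, and AGA1 has 1 at 202 bases. The distant element of PRM6 is past the 398 bases that separate PRM6 from PRP39, so it lies inside the PRP39 gene. KAR4 has 2 on the opposite strand, at 145 and 100 bases. Those of FIG2 lie at 449 and 354 bases, further from the start codon than the nearest element of any other gene of the 10 that has one. FIG1, KAR5 and FAR1 have no exact match in this window, which says only that these letters are not there.

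**Figure D3:**
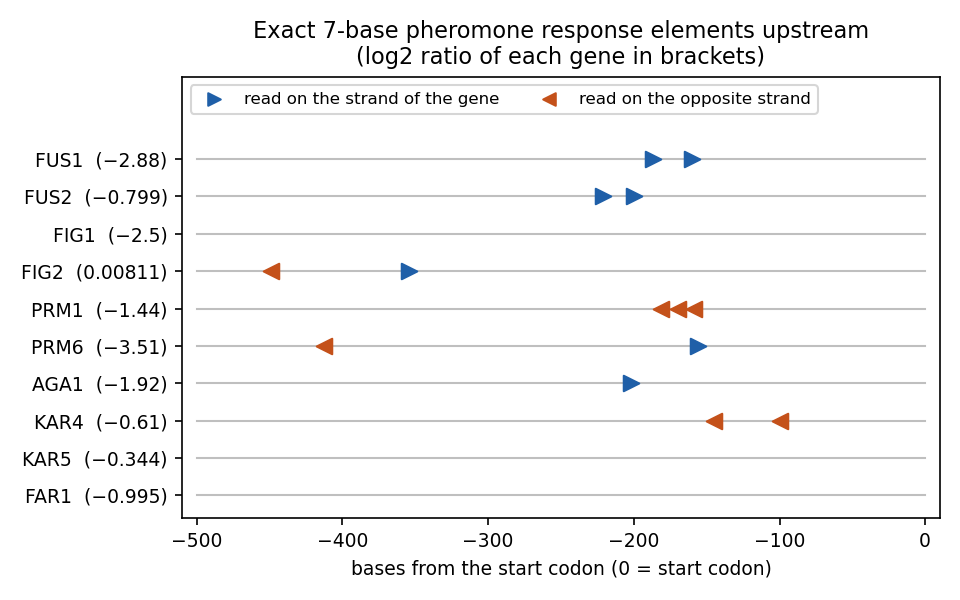
Position of each exact pheromone response element in the 500 bases before the start codon (at 0), with 1 line per gene and its log2 ratio in brackets. Arrowheads give the strand. The elements of FUS1, FUS2, PRM1, AGA1 and KAR4 lie between 221 and 100 bases from the start codon, and those of FIG2 lie at 449 and 354 bases.

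The genes that were called lower and the others overlapped in their number of elements. Of the 5 called, 4 had at least 1 element and 3 had at least 2. These 3 include PRM6, for which 1 of the 2 elements lies inside PRP39. Of the 5 not called, 3 had at least 1 and the same 3 had at least 2. Within 250 bases, 4 of the 5 called and 2 of the 5 not called had an element. Each of the 5 called had 3 TGAAAC cores in the 500 bases, whereas those not called had 0 to 4, and FUS2 and KAR4 had 4 each. FUS1 and FUS2, with 2 elements each on their own strand, had log2 ratios of −2.88 and −0.80. FIG1, which holds 3 TGAAAC cores and no full element in the 500 bases, was at −2.50.

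Genes outside the group were then counted by the same element. Among 41 other genes with at least 2 elements, 4 were called lower (9.76%), against 61 of 4563 without an element (1.34%) and 7 of 563 with 1 element (1.24%). Their median log2 ratio was −0.13 (95% order-statistic interval −0.32 to 0.06). The 4 genes were all mating genes: BAR1, for the protease that degrades alpha-factor, at −1.24, the receptor gene STE2 at −1.18, the karyogamy gene PRM3 at −1.14 and the a-factor gene MFA2 at −1.12. Of the 41 genes, 9 belonged to the mating lists described below, in which TEC1 and its filamentation targets are included, and all 9 had log2 ratios under 0, the median being −0.91. The 32 others had a median of −0.05, with 0 called lower and 1 higher. In a window of 250 bases, 8 other genes had at least 2 elements and 0 of them were called lower. With the TGAAAC core in 500 bases, 9 of 277 other genes with at least 2 matches were called lower (3.25%), against 1.32% of those without a match.

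**Figure D4:**
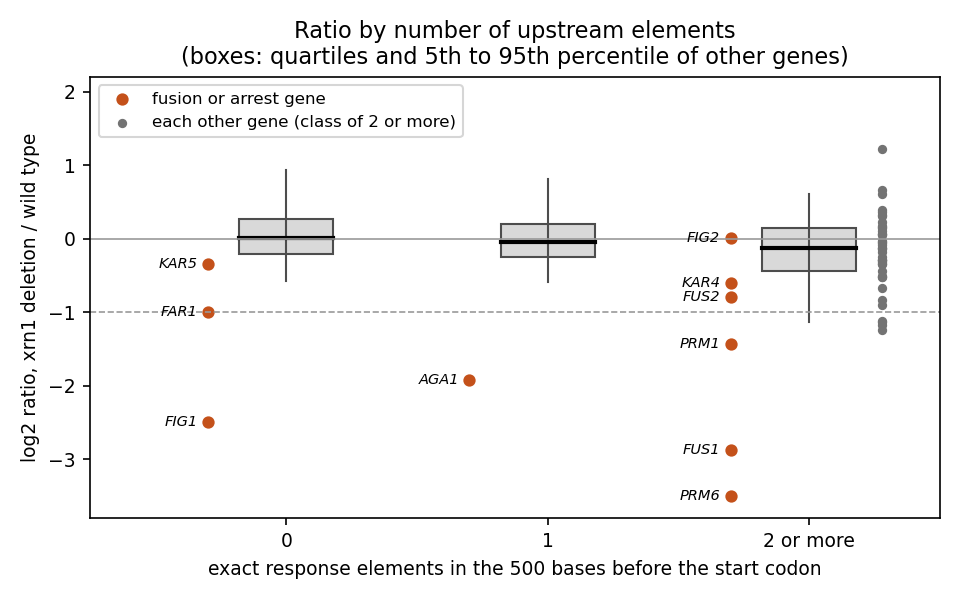
Log2 ratio by the number of exact elements in the 500 bases before the start codon. Boxes give the quartiles, whiskers the 5th to 95th percentile of the 4563, 563 and 41 other protein-coding genes, orange points are the 10 genes, and grey points at the right are the 41 genes 1 by 1. The 10 genes spread from 0.01 to −3.51 and occur in every class.

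Elements shared with a divergent gene went with different ratios on either side. The 3 elements between PRM1 and ERG24 lie within 500 bases of both start codons, and the log2 ratios were −1.44 for PRM1 and −0.09 for ERG24. KAR4 and PEX34, a peroxisomal membrane protein gene, share 2 elements across 569 bases and had log2 ratios of −0.61 and −0.15. PRM6 and PRP39 share the element that lies 156 bases before PRM6, and had log2 ratios of −3.51 and −0.37.

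No signalling gene had a ratio as low as that of FUS1. Of 19 signalling genes from receptor to transcription factor, 2 were called lower and 0 higher, with a median log2 ratio of −0.20. These were STE2, with 58886 and 18234 counts, and SST2, the brake on the G protein, at −1.56 with 27617 and 6557 counts. The G protein alpha subunit gene GPA1 was at −0.81, the MAP kinase gene FUS3 at −0.53 and its relative KSS1 at −0.64. STE12, whose upstream region holds 3 elements, was at −0.35, STE20 at −0.23, STE11 at 0.07 and STE7 at 0.23. The scaffold gene STE5 was at −0.16.

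Of the 7 a-specific genes, which a cells transcribe and alpha cells do not, 4 were called lower, and the median was −1.12. STE2 is 1 of these 4 and was also counted among the signalling genes. The a-factor gene MFA1, at a ratio of 0.501, passed the limit under each of the 4 other scalings, which makes 5 of 7 there. Each of the 7 has at least 1 element in the 500 bases. AGA2, whose product joins Aga1 on the cell surface, was at −0.84 (−0.98 to −0.70) against −1.92 for AGA1. ASG7 was at −1.21, and STE6, the a-factor exporter gene with 77200 and 35979 counts, was at −0.59.

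Genes named PRM for regulation by pheromone did not move together. Besides PRM1 and PRM6, PRM3 and PRM7 were called lower and PRM10 was called higher, and the median of the 8 others was 0.39. PRM7, with 19965 and 6668 counts, was at −1.07 (−1.11 to −1.03) without an element in its 500 bases. PRM10 was at 1.11 and overlaps YJL107C, so its counts are uncertain. PRM5, a target of the cell wall integrity pathway, was at 0.68.

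Partners of the described proteins were mostly near the median gene. Of 9 polarity and cell fusion genes and 10 karyogamy genes, 0 were called, with medians of 0.00 and −0.07. PRM3, which also acts in karyogamy and was called lower, is counted among the PRM genes. RVS161, the partner of FUS2, was at 0.25, SPA2 at −0.09 and the formin gene BNI1 at 0.06. Among the karyogamy genes, KAR3 and CIK1, for a kinesin motor and its associated protein and known targets of Kar4, were at −0.69 and −0.40. KAR1 was at −0.26 and the abundant chaperone gene KAR2 at 0.23. TEC1, for the partner of Ste12 in filamentous growth, has 3 elements and was at −0.91, and its target genes FLO11 and PGU1 were at −0.62 and −0.57.

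**Figure D5:**
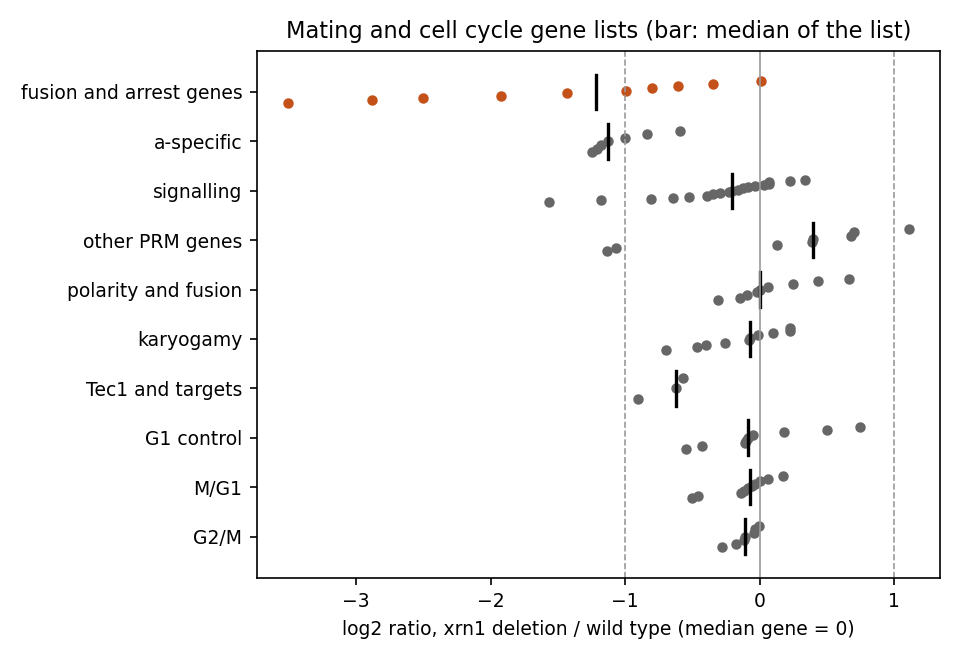
Log2 ratios of the 10 genes and of 9 lists of mating and cell cycle genes, with 1 point per gene, a bar at the median of each list and dashed lines at the 2-fold limits. The 10 genes reach from −3.51 to 0.01, the 7 a-specific genes from −1.24 to −0.59, and the G2/M genes from −0.28 to −0.01.

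The lists of cell cycle phases held no called gene. FAR1 acts on G1 cyclins, and AGA1, FAR1 and KAR4 vary with the cycle. Genes of G1 control had a median of −0.09 with 0 of 9 called, daughter-cell and M/G1 genes −0.07 with 0 of 10 called, and G2/M genes −0.11 with 0 of 7 called. The G1 cyclin genes CLN2 and CLN3 were at −0.09 and 0.50. EGT2 and DSE4 of the M/G1 list were at 0.00 and 0.17. Genes of the stress response were higher in the same comparison, with 8 of 10 called and a median of 2.12. Among them the disaggregase gene HSP104 was at 1.49 and the trehalose-phosphate synthase gene TPS1 at 1.87. Their part in the ratios of the 10 genes was not tested.

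Markers of mating type were compared because alpha cells in a culture would bring alpha-factor. The 7 a-specific genes made up 0.280% of wild-type counts and 0.147% of those in the deletion strain, and the 4 alpha-specific genes 0.00868% and 0.00617%. The alpha-factor genes MF(ALPHA)1 and MF(ALPHA)2 had 16 and 22 wild-type counts, and 15 and 17 in the deletion strain. The a-factor receptor gene STE3 went from 232 counts in the wild type to 35, 4.65-fold lower (3.25 to 6.84), and the agglutinin gene SAG1 had 5368 and 2797. SAG1 thus held most of the 5638 wild-type counts of the 4 genes. Every row of the wild-type library had at least 1 count, so a count above 0 there does not by itself show transcription. The part of these 4 genes in the ratios of the 10 genes was not tested. Of 6 meiotic genes, 0 were called lower and 1, SPO19, was called higher, and they took 0.00745% and 0.00725% of the counts.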

How the data were processed

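The table deposited by the authors gives raw read counts of 6448 open reading frames, in 1 library per strain. Per the submitters' processing notes, the tools were TopHat2 2.1.1, Trimmomatic, FastQC, Subread and featureCounts, with the builds R64 and sacCer3. The use of strand and the handling of multiply mapping reads are not given in the sources used here. Antisense transcripts and close paralogs therefore cannot be told apart. Names, positions, coding lengths and upstream sequence came from the RefSeq R64 annotation, which matched 5831 rows. All 10 genes had at least 100 counts over both libraries. FIG1 and PRM6 passed this minimum through the wild type, with 13 and 10 counts in the deletion strain. Ratios were scaled to the median over protein-coding genes of 100 or more counts, with 95% exact conditional (Clopper-Pearson) intervals that cover counting error only. The procedure was checked on simulated counts that held counting error only, so the check does not cover the spread between cultures. The members, lists and alternatives were chosen with earlier results of these data known. Named from each list were called genes, those with the most counts, and some chosen after their values were seen. No library carries a stated batch. Tools were scipy 1.17.1, pandas 2.3.3 and numpy 2.4.6 in Python 3.11.15, and for alternative scalings edgeR 4.0.16 and DESeq2 1.42.0 in R 4.3.3.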

Additional observations from a re-analysis of the deposited data

How the results depend on the processing

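No paired analysis was possible because there was a single library of either strain, and none could be left out. Alternatives were 4 other scalings, minimums of 0 and 500 counts, an added count of 5, the removal of overlapping genes, other folds for a call and other forms of the element. The scalings shifted the median gene by −0.03 to −0.01 on the log2 scale. Under total count, protein-coding count, TMM factors and DESeq2 size factors, FIG2 was at −0.019, −0.013, −0.0073 and −0.0060, and FAR1 at −1.022, −1.017, −1.011 and −1.0096. With a minimum of 500 counts, FIG1 and PRM6 dropped out and 3 of the other 8 genes were called lower, with 62 of all genes lower and 184 higher. With 5 added to each count, FIG1 was at −2.10 and PRM6 at −2.97. At 1.5-fold 8 of the 10 genes were called lower, with 278 of all genes lower and 536 higher. At 4-fold 3 were called, with 15 lower and 49 higher. Only 2 alpha-specific genes had enough counts, STE3 and SAG1, and their median was −1.32. With no minimum the median of all 4 was −0.15, and at 500 counts SAG1 alone was left, at −0.43. Of the 55 other mating genes, 1 was called higher, PRM10, and it was itself left out with the overlapping genes. This left 0 of 54 called higher. With 250 bases, other genes with at least 2 elements had a median of 0.10 with 0% called lower. MFA1 also passed the limit under the 4 scalings, so that 8 in place of 7 of the 55 other mating genes were called lower there, and 6 of 53 were at 500 counts. The TGAAAC core lowered the share called among other genes with at least 2 matches from 9.76% to 3.25%. The other results stayed within 1.5 times their count or within their interval, or kept their side of the limit.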
